A study of Homo sapiens with 24 samples.

Results

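P-Rex1, encoded by PREX1, is a guanine nucleotide exchange factor that loads the small GTPase Rac with GTP when phosphoinositide 3-kinase products and G protein βγ subunits act on it. In luminal breast cancer cells it acts downstream of the ErbB receptors, and Rac in turn drives actin remodelling, motility and signalling to the nucleus. The comparison described here asked how T-47D cells silenced with the P-Rex1 RNAi duplex #2 differed from cells given a non-target control duplex (NTC) while both were under heregulin (HRG), a ligand of ErbB3 and ErbB4. T-47D cells come from a breast cancer of the luminal type and express the estrogen receptor. It rests on 6 of the 24 arrays of the series, chosen by their sample titles: 3 biological replicates of P-Rex1 RNAi #2 with HRG and 3 of NTC RNAi with HRG. All were transiently transfected, serum-starved and then given HRG at 20 ng/ml for 6 h. Set beside them were P-Rex1 RNAi #2 and NTC cells with vehicle (PBS), cells with the duplex P-Rex1 RNAi #1 and HRG, and parental, untransfected cells with HRG or with vehicle, at 3 arrays a group. Each array gave 1 log2 expression value per probe set, and the 21042 of 28536 probe sets that carry a gene symbol were tested.

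PREX1 transcript was lower in RNAi #2 cells, although less so with HRG than without it. With HRG, PREX1 (probe set 8066848) had log2 values of 8.83, 8.57 and 8.80 in the P-Rex1 RNAi #2 arrays, against 9.53, 9.52 and 9.30 in the NTC arrays. All 3 silenced arrays lay below all 3 control arrays. The difference was -0.72 (standard error 0.07, adjusted p = 1.02e-06, limma), which left 60.9% of the NTC level. An exact two-sided permutation test of the 3 against 3 arrays gave p = 0.1, the smallest it can give. Without HRG the difference was -1.42, or 37.3% of the NTC level. HRG on its own lowered PREX1 in parental cells, by 1.05 on the log2 scale, and the difference between the duplex and NTC was 0.71 smaller in size with HRG than without (interaction, adjusted p = 0.000446, limma). PREX1 levels with duplex #2 and duplex #1 differed under HRG by 0.20 (adjusted p = 0.148), while #1 against NTC was -0.92.

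**Figure D1:**
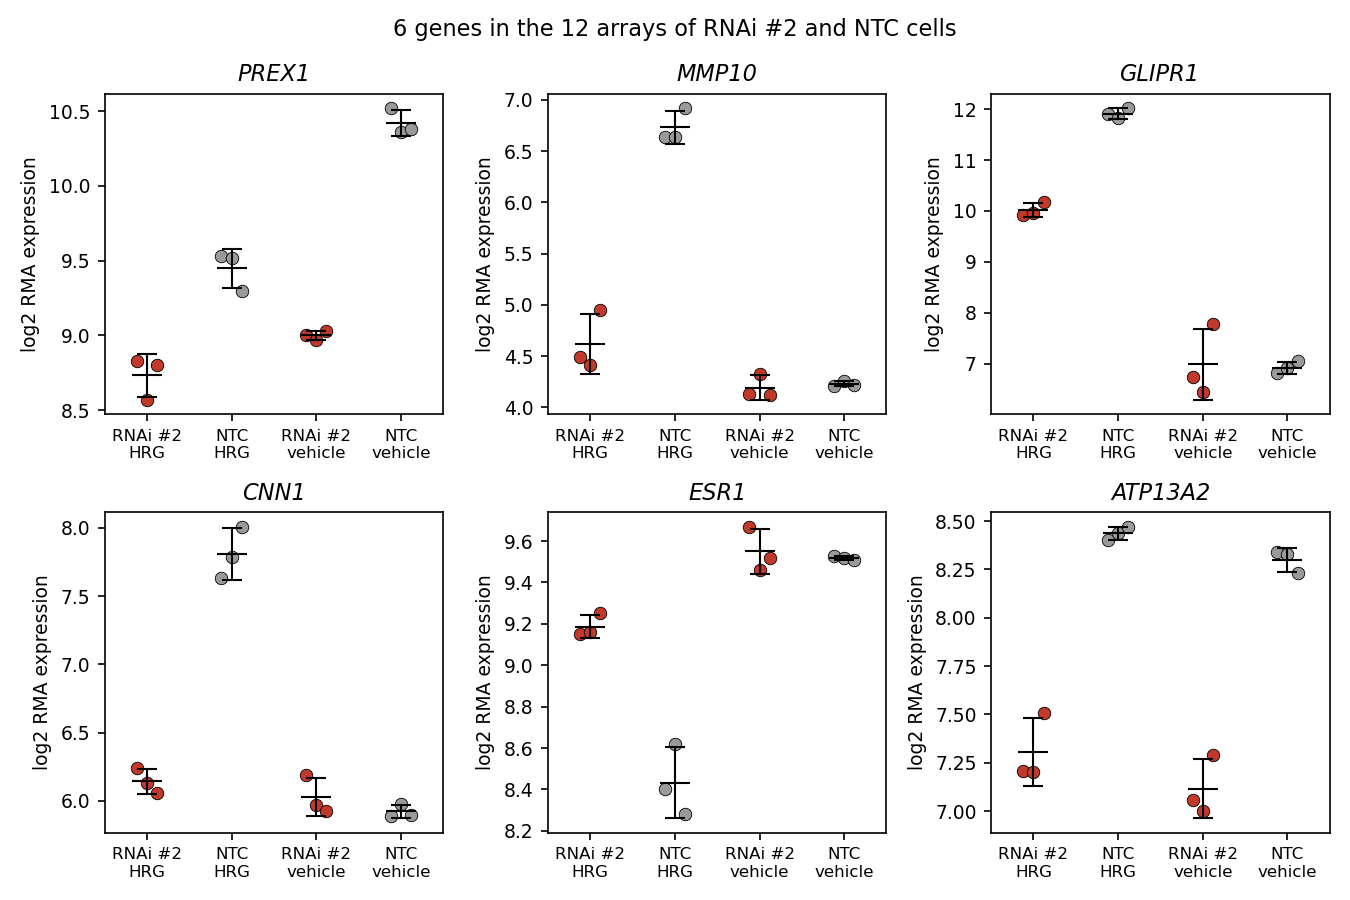
Log2 RMA expression of 6 genes in single arrays (points) of P-Rex1 RNAi #2 (red) and NTC cells (grey), first with HRG and then with vehicle, with the mean and SD of 3 arrays as black bars. MMP10, GLIPR1 and CNN1 separate the RNAi #2 and NTC cells with HRG and not with vehicle, ATP13A2 separates them in both, and ESR1 is higher in RNAi #2 cells with HRG.

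Across the transcriptome, more probe sets were called lower than higher in RNAi #2 cells under HRG. Most of those called lower were ones that HRG itself raises. A probe set was called where its Benjamini-Hochberg adjusted p over all probe sets tested was under 0.05 and its fold change over 1.5. In P-Rex1 RNAi #2 cells 197 probe sets (0.936% of those tested) were lower and 52 (0.247%) were higher than in NTC cells. Counted as genes with a single symbol, 191 were lower and 50 were higher. The median fold difference was 1.68 among those lower, up to 4.33 for MMP10, and 1.56 among those higher, up to 2.24 for DLG2. Among all probe sets tested the median log2 difference was -0.01. At an adjusted p under 0.05 alone (limma), 1172 (5.57%) were lower and 1327 (6.31%) higher. The excess of lower probe sets thus held only past a fold threshold. The RNAi #2 and NTC arrays did not overlap for 197 of the 197 lower and for 51 of the 52 higher probe sets, against 23.7% of all those tested. The count of higher probe sets depended on single arrays: it was 84 without NTC array 2, 23 without NTC array 3, 30 without RNAi #2 array 1 and 91 without RNAi #2 array 3, whereas the lower count stayed between 183 and 222 when any 1 of the 6 arrays was left out. Against parental cells with HRG in place of NTC, 161 of the 197 lower and 19 of the 52 higher probe sets were called again in the same direction, with the same RNAi #2 arrays in both.

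The largest falls were in MMP10, GLIPR1, MMP1, SPRR1A and CNN1. MMP10 (stromelysin-2, a matrix metalloproteinase) had log2 values of 4.49, 4.41 and 4.95 in RNAi #2 arrays, against 6.64, 6.64 and 6.92 in NTC arrays. The highest silenced array was well under the lowest control, and the silenced level was close to the 4.19 of RNAi #2 cells and the 4.23 of NTC cells that had no HRG. The difference of -2.12 (standard error 0.19, adjusted p = 1.43e-07, limma) was the largest of any called probe set with a single symbol. MMP1, the interstitial collagenase, had 4.14, 4.12 and 4.25 in RNAi #2 arrays, against 5.86, 6.14 and 5.63 in NTC arrays. The groups did not overlap, and the silenced values lay below the 25% quantile of every array (4.27 at the lowest), so the difference of -1.71 (standard error 0.11, adjusted p = 2.31e-09) may be compressed. GLIPR1, a member of a family of secreted cysteine-rich proteins and the gene HRG raised most here (by 4.95 in parental cells), had 9.92, 9.96 and 10.18 in RNAi #2 arrays, against 11.9, 11.82 and 12.02 in NTC arrays. It fell by 1.89 (standard error 0.20, adjusted p = 1.05e-06) yet stayed far above its vehicle level of 7.0 in RNAi #2 and 6.92 in NTC cells, unlike MMP10.

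SPRR1A, a precursor of the cornified envelope of keratinocytes, had log2 values of 6.52, 6.77 and 6.72 in RNAi #2 arrays, against 8.21, 8.08 and 8.77 in NTC arrays, and fell by 1.68. CNN1 (calponin, an actin- and myosin-binding protein of smooth muscle) had 6.24, 6.13 and 6.06 in RNAi #2 arrays, against 7.63, 7.79 and 8.01 in NTC arrays, and fell by 1.67. Neither gene's groups overlapped, and CNN1 in silenced cells with HRG was near the 6.03 and 5.92 of RNAi #2 and NTC cells with vehicle. The EGF-family ligand EPGN (epigen) had 4.89, 4.91 and 5.01 in RNAi #2 arrays, against 6.19, 6.30 and 6.50 in NTC arrays, a difference of -1.39 (adjusted p = 3.09e-07, limma). ITGA2, the collagen-binding integrin α2 chain, had 9.83, 9.86 and 10.09 in RNAi #2 arrays, against 11.23, 11.29 and 11.41 in NTC arrays, a difference of -1.38 (adjusted p = 5.82e-09). The silenced cells lay below the controls in every array for both. The remaining genes among the 15 largest falls were MAP1B, a microtubule-associated protein (-1.55), GPAT3, an acyltransferase of glycerolipid synthesis (-1.49), SCNN1G, the γ subunit of the epithelial sodium channel (-1.43), the protease inhibitor SERPINA3 (-1.38), the Rab27 effector SYTL2 (-1.37), SLITRK6 (-1.32), the actin-binding CALD1 (caldesmon, -1.31) and LOC151760 (-1.31). All 15 were genes that HRG raised in parental cells.

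The promoters of 2 of these genes and of the actin gene ACTG2 are shown as examples of promoters with matches to the motifs of AP-1, TEAD and SRF, factors known from growth factor and actin genes. They run 250 bases up to the RefSeq transcription start (GRCh38.p14), 5′ to 3′ on the coding strand, with motif matches in capitals: TGANTCA for AP-1, GGAATG for TEAD, and the CArG box of SRF, each searched on both strands. The MMP10 promoter (chr11:102780629-102780878, minus strand) holds 1 AP-1 match beginning 67 bases before the start, that of SPRR1A (chr1:152983831-152984080, plus strand) an AP-1 match at 108 and a TEAD match at 87 bases, and that of ACTG2 (chr2:73892758-73893007, plus strand) 2 CArG boxes at 110 and 73 bases.
MMP10: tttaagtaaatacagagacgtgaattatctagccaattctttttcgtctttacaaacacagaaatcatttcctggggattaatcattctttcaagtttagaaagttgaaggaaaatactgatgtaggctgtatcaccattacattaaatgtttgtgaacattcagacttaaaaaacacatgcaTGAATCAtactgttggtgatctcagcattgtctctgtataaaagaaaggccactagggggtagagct
SPRR1A: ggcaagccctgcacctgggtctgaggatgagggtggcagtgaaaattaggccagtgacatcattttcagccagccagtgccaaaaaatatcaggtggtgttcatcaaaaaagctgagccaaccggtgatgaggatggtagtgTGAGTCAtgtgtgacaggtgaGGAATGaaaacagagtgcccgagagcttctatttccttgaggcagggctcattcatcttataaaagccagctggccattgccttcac
ACTG2: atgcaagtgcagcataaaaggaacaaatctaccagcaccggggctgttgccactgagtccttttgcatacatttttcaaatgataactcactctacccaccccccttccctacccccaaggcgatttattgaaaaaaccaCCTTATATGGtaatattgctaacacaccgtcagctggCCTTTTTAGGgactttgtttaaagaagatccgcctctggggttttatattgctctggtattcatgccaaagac
Of the 17 genes looked up, which were the 15 largest falls with ACTA2 and ACTG2, 13 had a promoter entry. Besides the promoters shown, SLITRK6 had 1 AP-1 match and CALD1 had 1 TEAD match. In this window no match of the 3 motifs was found for the rest, which were CNN1, MAP1B, GPAT3, EPGN, ITGA2, SERPINA3, LOC151760 and ACTA2. Among 150 promoters of genes called lower, AP-1 was matched in 9.33%, the CArG box in 3.33% and TEAD in 13.3%, against 4.91%, 1.17% and 9.98% of the 14208 promoters of tested genes and 6.60%, 1.14% and 11.9% of all 27305 RefSeq promoters. For the HRG-raised genes that were called lower (123 promoters, 5 with a CArG box) the shares were 11.4%, 4.07% and 15.4%. For the HRG-raised genes that were not called lower (293 promoters, 3 with a CArG box) the shares were 5.46%, 1.02% and 8.19%. These shares describe letters in the window and were not tested.

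The rises were smaller, and 38 of the 52 higher probe sets were ones that HRG lowered in parental cells. DLG2, a scaffold of the membrane-associated guanylate kinase family, had log2 values of 6.93, 6.62 and 6.42 in RNAi #2 arrays, against 5.53, 5.72 and 5.23 in NTC arrays. The groups did not overlap, and DLG2, higher by 1.16 (standard error 0.14, adjusted p = 5.04e-06, limma), was the 1 gene past a 2-fold difference in this direction. BLNK, an adaptor of B cell receptor signalling, had 8.28, 8.03 and 7.90 in RNAi #2 arrays, against 7.07, 7.23 and 7.0 in NTC arrays, and rose by 0.97 (adjusted p = 3.25e-08). ESR1, the estrogen receptor α gene, had 9.15, 9.16 and 9.25 in RNAi #2 arrays, against 8.40, 8.62 and 8.28 in NTC arrays. This probe set (8122843) was higher by 0.75 (adjusted p = 1.80e-06) and stayed under the 9.55 and 9.52 of RNAi #2 and NTC cells with vehicle, while a second ESR1 probe set (8122840) differed by -0.03. NR1D2, a nuclear receptor that represses clock genes, had 7.67, 7.71 and 7.45 in RNAi #2 arrays, against 6.72, 7.07 and 6.94 in NTC arrays, and rose by 0.70 (adjusted p = 1.25e-05). For each of these 4 genes every silenced array was above every control array.

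Others among the 15 largest rises were CAB39L, a partner of the kinase LKB1 (0.93), the katanin-like KATNAL2 (0.81), the ciliary gene CFAP44 (0.79), TENM2 (0.76), the metalloreductase STEAP4 (0.73), the lysosomal transporter SLC46A3 (0.72), KLHL13 (0.71), FYB2 (0.70), SERPINA10 (0.70), FAM151B (0.69) and BDH1, an enzyme of ketone body metabolism (0.69). STEAP4 went the other way without HRG, with a called difference of -0.65. The calls of CFAP44 (0.54) and STEAP4 (0.57) were lost without NTC array 3, and that of FYB2 without NTC array 1 (0.64), NTC array 3 (0.61) or RNAi #2 array 1 (0.54).

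The HRG response was classed from the parental arrays, which belong to neither group compared. HRG raised 601 probe sets (2.86%) and lowered 507 (2.41%) in those cells. Of the 601 raised, 160 (26.6%) were lower in RNAi #2 than in NTC cells under HRG and none was higher, and 542 had a difference below 0. Their median difference was -0.36, set against -0.03 between the same 2 kinds of cells with vehicle. Of the 507 lowered, 38 (7.5%) were higher, 459 had a difference above 0 and the median was 0.27, against -0.07 with vehicle. The share of the lowered class called higher was 2.76% without NTC array 3 and 3.94% without RNAi #2 array 1. The 2 HRG-lowered probe sets that were lower in silenced cells were those of PREX1 and LMO3. The 19934 probe sets without a call for HRG had a median of -0.005, and 35 of them were lower and 14 higher.

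Array by array, the median of the HRG-raised probe sets against the NTC mean was -0.381, -0.379 and -0.358 in RNAi #2 arrays, against -0.043, 0.015 and 0.024 in NTC arrays. The median of the HRG-lowered probe sets was 0.352, 0.228 and 0.238 in RNAi #2 arrays, against 0.022, 0.077 and -0.088 in NTC arrays. All RNAi #2 arrays stood apart from all NTC arrays in both classes. On the same scale NTC arrays with vehicle were at -0.755, -0.756 and -0.780 for the raised class, so silenced cells with HRG lay between control cells with and without it.

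**Figure D2:**
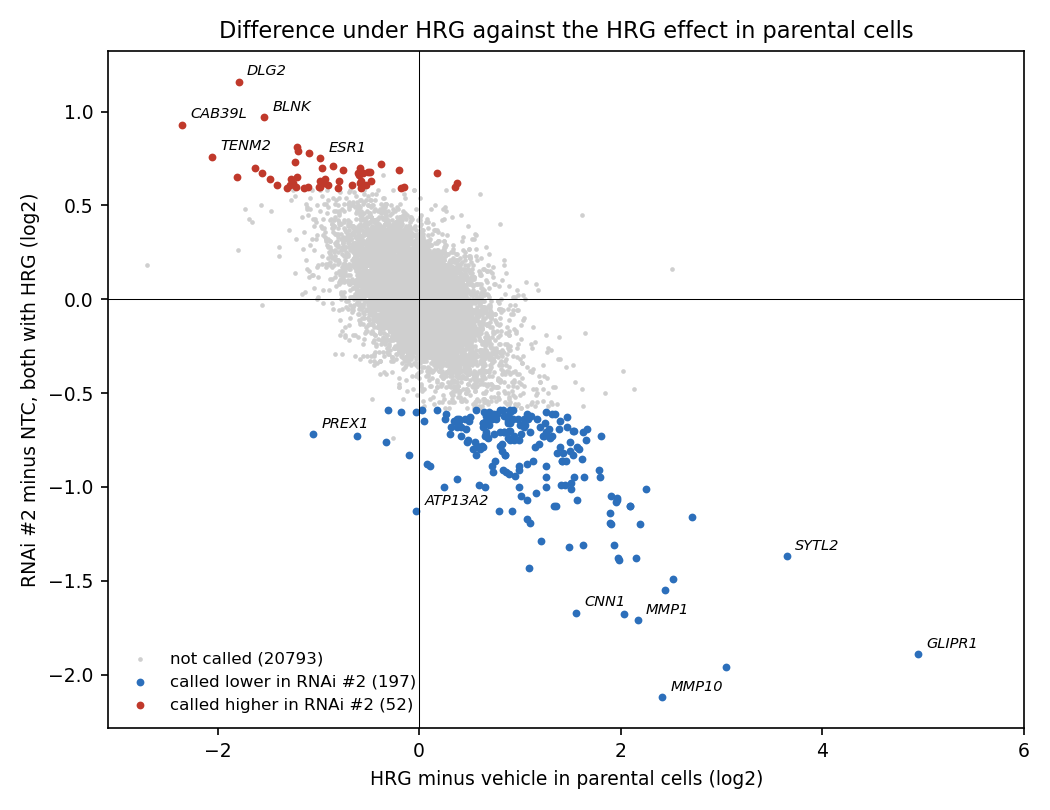
Log2 difference of P-Rex1 RNAi #2 minus NTC cells, both with HRG (vertical), against HRG minus vehicle in parental cells (horizontal), for the 21042 probe sets tested. The 197 called lower (blue) lie mostly to the right of 0 and the 52 called higher (red) mostly to the left.

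**Figure D3:**
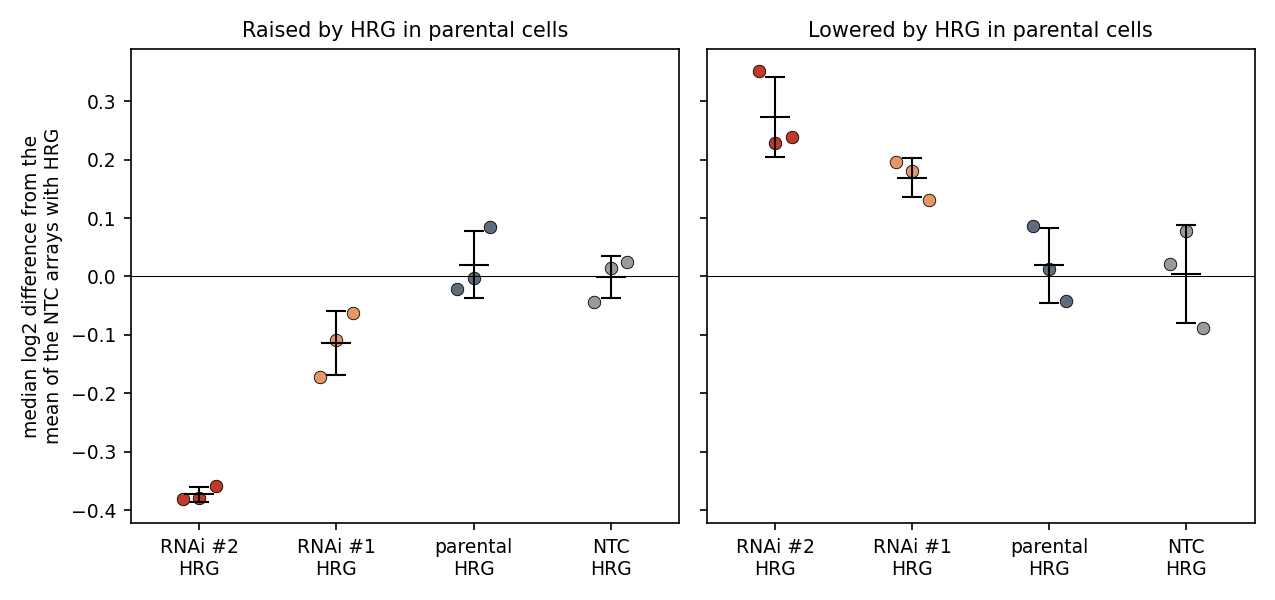
Median log2 difference from the mean NTC array with HRG over the 601 HRG-raised (left) and 507 HRG-lowered (right) probe sets of parental cells, for each array with HRG (points), with the mean and SD of 3 arrays. RNAi #2 arrays lie at -0.358 or lower on the left, RNAi #1 arrays between -0.172 and -0.062, and NTC arrays around 0. The parental arrays also defined the classes.

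Whether a difference was of another size with HRG than with vehicle was asked by testing the interaction, the difference with HRG minus that with vehicle. An interaction passed where its adjusted p was under 0.05 and its size over 1.5-fold. In all, 130 probe sets (0.618%) passed with a lower and 56 (0.266%) with a higher difference with HRG. Of the 197 lower probe sets, 107 passed both thresholds in the same direction, 21 were called lower without HRG too, and 69 were neither. At an adjusted p under 0.05 alone (limma), 134 of the 197 had an interaction in the same direction. The interaction was -2.08 for MMP10 (adjusted p = 0.000119), -1.96 for GLIPR1 (adjusted p = 0.000273), -1.79 for MMP1 (adjusted p = 1.75e-06) and -1.77 for CNN1 (adjusted p = 1.76e-07, limma). With vehicle these 4 genes differed by -0.04, 0.07, 0.09 and 0.10. MMP10, at 4.12 to 4.33 in the vehicle arrays of both kinds of cells, and MMP1, at means of 3.97 in RNAi #2 and 3.88 in NTC cells, were then around or below the 25% quantiles of the arrays (4.27 to 4.43), where a further fall could not have been measured. Of the 52 higher probe sets, 15 passed the interaction, 1 was called higher without HRG too and 36 were neither. At an adjusted p under 0.05 alone (limma), 24 of the 52 had an interaction in the same direction. The gene higher in both conditions was OLR1, a receptor for oxidized low-density lipoprotein, at 0.60 with HRG and 1.00 without. The interaction gave 86 lower and 15 higher without replicate 3 of all groups, and 85 higher with the replicate number as a block. The higher count was 36 without NTC vehicle array 1, 37 without RNAi #2 vehicle array 2, 95 without NTC HRG array 2, 29 without NTC HRG array 3, 30 without RNAi #2 HRG array 1 and 91 without RNAi #2 HRG array 3.

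A small group of genes was lower in RNAi #2 cells whether or not HRG was given. With vehicle, 41 probe sets (0.195%) were lower and 3 (0.0143%) higher, and 21 of the 41 were also lower with HRG, PREX1 among them. The other 20 differed by -1.16 to -0.59 with HRG and by -1.25 to -0.60 without it. The genes named here were chosen after their values were seen. ATP13A2, a lysosomal polyamine transporter, had log2 values of 7.21, 7.20 and 7.51 in RNAi #2 arrays, against 8.40, 8.44 and 8.47 in NTC arrays. Its groups did not overlap, and it differed by -1.13 with HRG (adjusted p = 4.56e-09, limma) and by -1.18 without. RPF1, a ribosome biogenesis factor, differed by -1.0 and -1.08, the mitochondrial adenylate kinase AK4 by -0.99 and -1.08, and the stress-responsive NDRG1 by -0.83 and -0.71. The Rac exchange factor VAV2 differed by -0.76 with HRG and by -0.60 without, and the formin DIAPH1, which nucleates actin filaments, by -1.0 and -0.61.

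**Figure D4:**
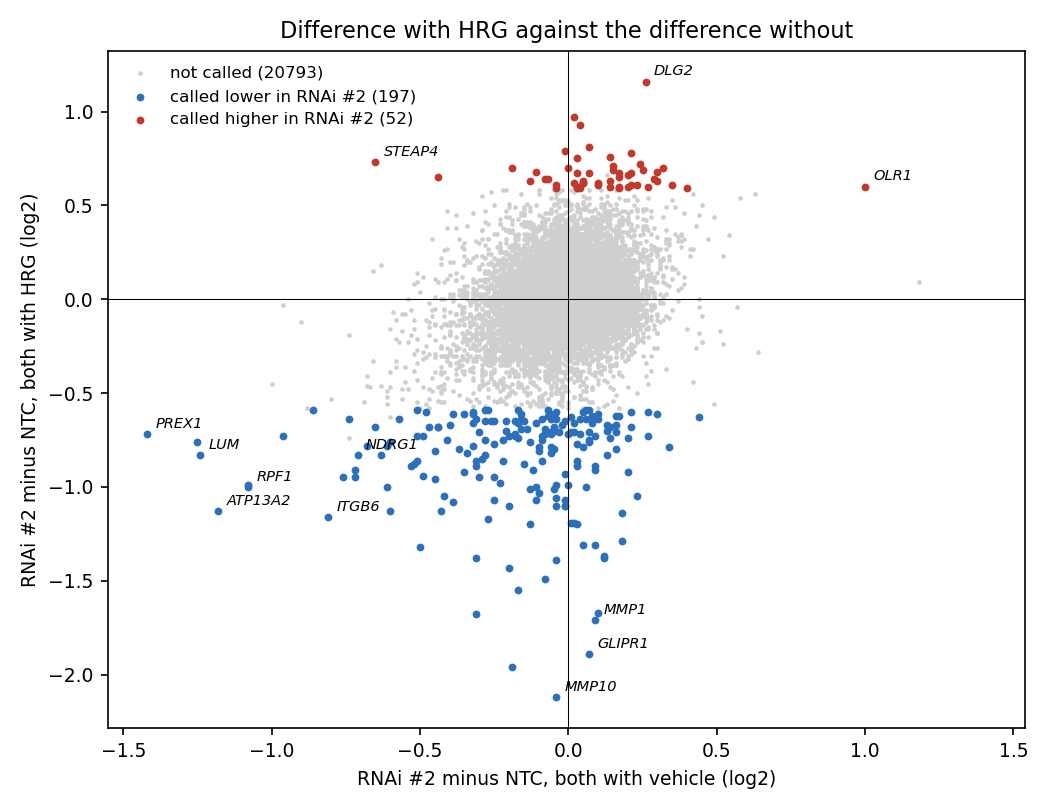
Log2 difference of P-Rex1 RNAi #2 minus NTC cells with HRG (vertical) against the same with vehicle (horizontal), 1 point per probe set. MMP10, GLIPR1 and MMP1 lie near 0 on the horizontal axis, and ATP13A2, RPF1, LUM and PREX1 lie at -1.08 or lower on it.

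Of those 20 probe sets, 16 were also lower in RNAi #2 cells than in RNAi #1 cells under HRG. RNAi #1 against NTC, which shares the NTC arrays, gave 0.01 for ATP13A2, 0.14 for RPF1, 0.10 for AK4, 0.24 for NDRG1, -0.11 for VAV2 and -0.10 for DIAPH1. LUM (lumican, a matrix proteoglycan) was lower with #2 by 0.83 and higher with #1 by 0.62, both called. CDC20B was an exception, with -0.76 for #2 and -0.79 for #1 against NTC.

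Set directly against the other duplex, RNAi #2 with HRG had 82 probe sets (0.390%) lower and 5 (0.0238%) higher than RNAi #1 with HRG. The count of 5 was 10 without RNAi #1 array 1, 2 without RNAi #2 array 1 and 12 without RNAi #2 array 3. Of the 197 probe sets lower than NTC, 63 were also called lower than RNAi #1. Of the 52 higher ones 1 was called in its own direction, OLR1. At an adjusted p under 0.05 alone (limma), 146 of the 197 and 20 of the 52 differed from RNAi #1 in the same direction. The RNAi #2 arrays enter both comparisons. MMP10 was lower with #2 than with #1 by 1.43 (adjusted p = 8.22e-05, limma), MAP1B by 1.42 (adjusted p = 1.56e-06), MMP1 by 1.20 (adjusted p = 9.20e-07) and CNN1 by 0.62 (adjusted p = 0.000344). No difference past the thresholds was found for the actin genes ACTA2 (0.09, standard error 0.1) and ACTG2 (-0.02, standard error 0.13) or for RAET1L (-0.10, standard error 0.12). For ACTA2 the 2 duplexes differed from NTC by -1.17 with #2 and by -1.26 with #1. Against NTC, RNAi #1 had 24 probe sets lower (0.114%) and 14 higher (0.0665%). The 601 HRG-raised probe sets had a median of -0.11 with #1 against NTC and of -0.25 for #2 against #1.

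Gene lists were read as counts of called members, beside 0.936% lower and 0.247% higher over all probe sets. Of the probe sets that HRG raised in parental cells, however, 26.6% were called lower, and the lists held such genes in different numbers. HRG raised 9 of the 40 matrix protease genes, 11 of the 30 integrin genes and 13 of the 36 SRF and MRTF genes. It also raised 8 of the 38 NF-kappa B genes and 9 of the 28 keratinocyte genes. Among 40 matrix proteases and their inhibitors, 9 were lower and none higher. They comprised MMP10 and MMP1, the plasminogen activator PLAU (-0.59), the lysosomal protease CTSV, and the inhibitors SERPINA3, SERPINB8 (-1.07), SERPINE2, TIMP2 (-0.88) and TIMP1 (-0.81), so that both proteases and inhibitors of proteases fell. Among 30 integrins and adhesion genes, 4 were lower: ITGA2, ITGB6 (-1.16) and ITGB8 (-1.13), whose products pair with the αv chain to bind and activate latent TGF-β, and the hyaluronan receptor CD44 (-0.89). ITGB6 and ITGB8 were also lower without HRG, by 0.81 and 0.60.

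Genes of the actin cytoskeleton that were listed as targets of the factors SRF and MRTF fell in part. Of 36 measured, 5 were lower and none higher, with a median of -0.16 against -0.01 over all probe sets. ACTA2, smooth muscle actin, had log2 values of 8.17, 7.84 and 7.95 in RNAi #2 arrays, against 9.02, 9.20 and 9.25 in NTC arrays, and ACTG2, whose CArG boxes are shown above, had 5.10, 5.16 and 5.36 in RNAi #2 arrays, against 5.85, 6.36 and 6.40 in NTC arrays. Neither overlapped, at -1.17 (adjusted p = 3.63e-08) and -1.0 (adjusted p = 2.29e-05, limma). The other 3 were CNN1, CALD1 and the myosin heavy chain MYH9, and 8 of the 36 passed the interaction downward. The 31 not called included TAGLN (-0.01) and TPM2 (-0.15). By the same counts, 14 of 41 ERK feedback and immediate early genes were raised by HRG in parental cells, and 2 of the 41 were lower in silenced cells, the ErbB ligands EREG (-0.79) and HBEGF (-0.60). Among 29 YAP and TEAD targets 1 was lower, TGFB2 (-0.63).

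Of 38 NF-kappa B and TNF targets, 6 were lower and none higher, with a median of -0.19. TNFAIP3, a feedback inhibitor of NF-kappa B, had 5.88, 5.82 and 5.81 in RNAi #2 arrays, against 6.78, 6.81 and 6.91 in NTC arrays, a difference of -0.99 (adjusted p = 1.62e-07, limma) with no overlap. The adhesion receptor ICAM1 was lower by 0.88, the cytokine IL32 by 0.80, the kinase MAP3K14 by 0.64 and the transcription factor IRF1 by 0.62, and PLAU is the sixth. Of 45 interferon-stimulated genes, 3 were lower, GBP2 (-0.98), IRF1 and RIGI (-0.59), and of 8 ligands of the NKG2D receptor of natural killer cells, RAET1L (-1.19) and ULBP3 (-0.71). Among 15 genes of the RNA interference machinery none was called, with a median of 0.03. Of 31 CXCR4 and chemotaxis genes, the kinase LYN (-1.20) and the receptor MET (-0.89) were lower, while CXCR4 itself, at -0.46 (adjusted p = 0.0118), was under the fold threshold. PRKCA, protein kinase Cα, at -0.57 (adjusted p = 0.000291) was just under it, and APOBEC3G differed by -0.11 (adjusted p = 0.556).

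**Figure D5:**
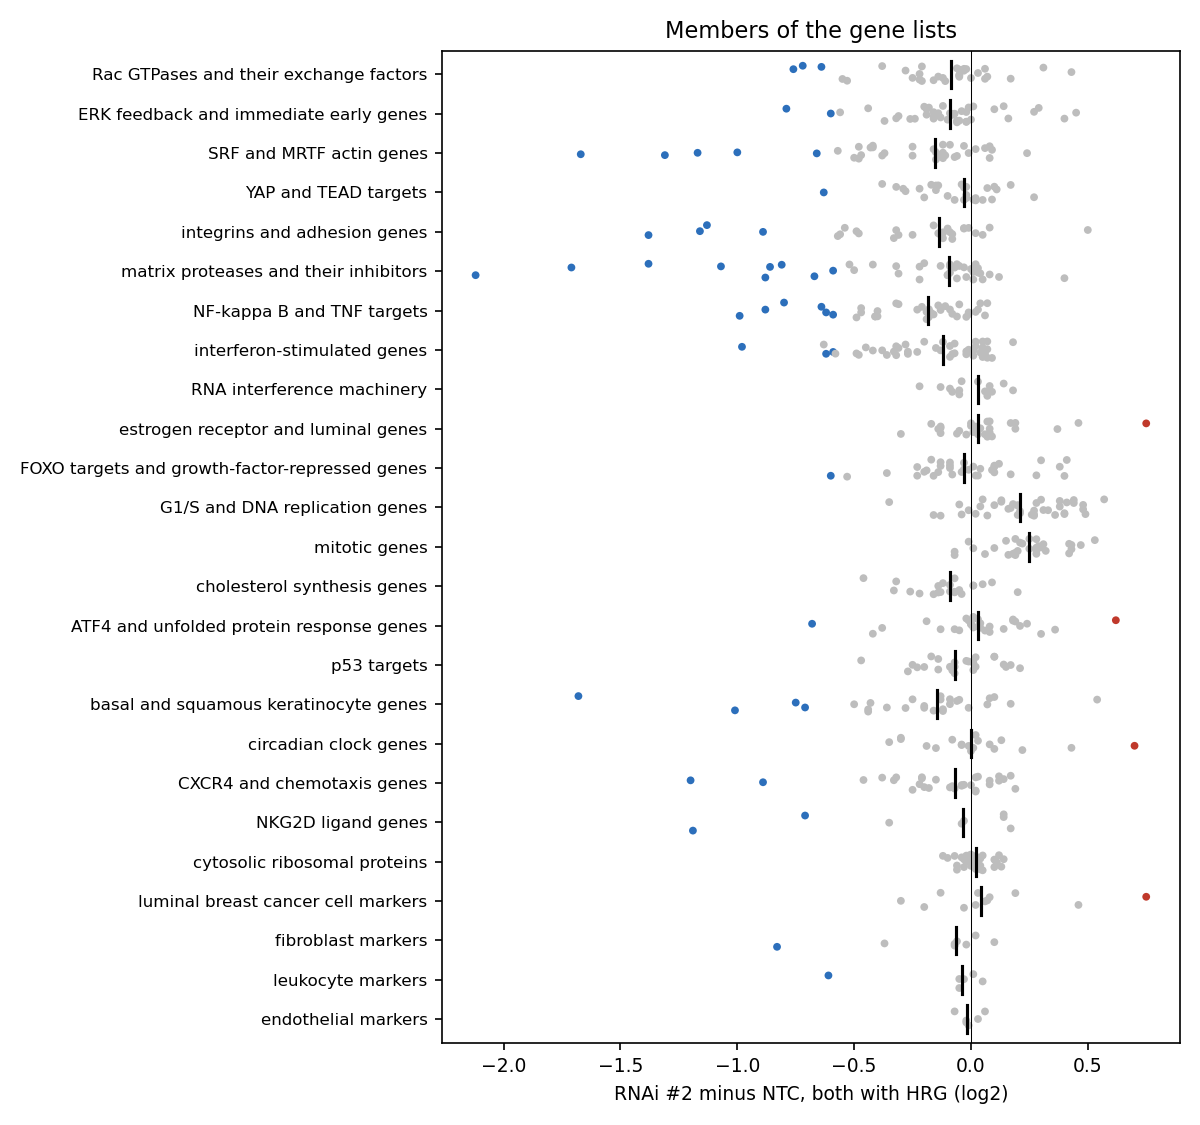
Log2 difference of P-Rex1 RNAi #2 minus NTC cells, both with HRG, for each member of 25 gene lists (points; blue called lower, red called higher, grey not called), with the median of each list as a black bar. Called falls reach -2.12 among matrix proteases, and the medians of the G1/S and mitotic lists lie at 0.21 and 0.25.

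Keratinocyte genes fell in part: of 28 basal and squamous genes, SPRR1A, ANXA1 (-1.01), SPRR3 (-0.75) and KRT15 (-0.71) were lower. The list of 32 Rac GTPases and their exchange factors also held other Rac pathway genes such as CHN1, PAK2, PAK4, ARHGDIA and ARHGDIB. In it 3 were lower, the RNAi target PREX1 itself, VAV2 and TRIO (-0.64), and none higher. Cell cycle genes moved little and the other way. None of 41 G1/S and DNA replication genes and none of 31 mitotic genes passed the fold threshold, but 20 and 14 of them were higher at an adjusted p under 0.05 alone, set against 6.31% of all probe sets, and 1 and 0 were lower, set against 5.57%. The mean of the G1/S list was 9.26, 9.17 and 9.12 in RNAi #2 arrays, against 9.01, 9.05 and 8.84 in NTC arrays, without overlap. The G1/S and mitotic medians were 0.21 and 0.25 with RNAi #2. With RNAi #1 they were 0.23 and 0.17, but against the same NTC arrays, so the 2 sets of medians are not independent. The mean of the mitotic list was 9.74, 9.70 and 9.57 in RNAi #2 arrays, against 9.52, 9.52 and 9.26 in NTC arrays. NTC array 3 was the lowest in both lists. Whether the shift was particular to duplex #2 was not tested. POLA2, a subunit of DNA polymerase α, differed by 0.57 (adjusted p = 0.000187, limma) and HMMR by 0.53 (adjusted p = 0.00886).

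Few members of the remaining lists were called. One of 29 estrogen receptor and luminal genes was higher, ESR1, and its call was lost when the values of its probe sets were averaged. Of 35 FOXO targets, IRS1 (-0.60) was lower, of 19 clock genes NR1D2 was higher, and of 30 ATF4 and unfolded protein response genes EDEM1 (-0.68) was lower and the cystine transporter SLC7A11 (0.62) higher. None was called among 22 cholesterol synthesis genes, 25 p53 targets and 36 cytosolic ribosomal proteins. Several calls near the fold threshold did not survive the loss of 1 array: those of HBEGF (-0.50), TGFB2 (-0.51), IRF1 (-0.55), IRS1 (-0.57), SPRR3 (-0.56) and CD68 (-0.50) without NTC array 3, RIGI (-0.54) and HBEGF (-0.57) without NTC array 2, RIGI (-0.58) and SLC7A11 (0.52) without NTC array 1, IRS1 (-0.58) without RNAi #2 array 1, RIGI (-0.55), IRS1 (-0.54), SLC7A11 (0.49) and CD68 (-0.53) without RNAi #2 array 2, and HBEGF (-0.57) and RIGI (-0.58) without RNAi #2 array 3.

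The arrays carried markers of luminal breast cancer cells, which do not by themselves identify the T-47D line. The mean of 12 luminal markers was 10.82 to 10.87 in RNAi #2 arrays and 10.73 to 10.79 in NTC arrays. The mean of 8 fibroblast markers was 5.31 to 5.39 in RNAi #2 and 5.51 to 5.54 in NTC arrays, with LUM called, that of 6 leukocyte markers 4.80 to 4.95 in RNAi #2 and 4.92 to 5.03 in NTC arrays, with CD68 (-0.61) called, and that of 6 endothelial markers 4.71 to 4.81 in RNAi #2 and 4.75 to 4.83 in NTC arrays, with none called. Their part in the differences was not tested. Array medians over all 24 arrays lay between 6.04 and 6.18. NTC and parental cells with HRG had 0 probe sets called against each other (limma), and 2030 at an unadjusted p under 0.05.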

How the data were processed

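RNA of 24 T-47D cultures, 3 biological replicates in each of 8 groups, was hybridised to Affymetrix Human Gene 1.0 ST arrays, and the authors ran Robust Multichip Average (RMA), a method that corrects the background, equalises the distributions and summarises each probe set. The deposited values are log2 expression values of 28536 probe sets. Versions and genome build are not given in the sources used here. Precision depends on the number of arrays, since they give no counts, and RMA compresses differences of dim probe sets.

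The platform annotation gave 19292 probe sets 1 symbol, 1750 several and 7494 none, and genes were named only from single-symbol probe sets. The probe set the study lists as GBP1 has several symbols and is not named. All arrays entered 1 limma fit (limma 3.58.1, R 4.3.3) with a mean per group. Differences are log2, RNAi #2 minus its control. Promoters come from RefSeq (GRCh38.p14). Where a gene of a list had several probe sets, the brightest was used, and 639 of 695 list entries were matched.

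The comparison and the gene lists were chosen with earlier results of these data known. Named genes are PREX1, the 15 largest called rises and falls that changed one way in all 3 same-numbered array pairs, genes the study names, up to 4 members of each list with the largest differences, and a few more that are marked in the text or complete a list's count. The main fit, which gave all the contrasts reported above, did not pair the arrays by replicate number. A fit with the replicate number as a block was an alternative, and the correlations of same-numbered arrays are given at the end. Exact permutation tests used scipy 1.17.1, and plots matplotlib 3.10.9.

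Alternatives were a replicate block, leaving out the dimmest 25% of probe sets, testing every deposited probe set, an intensity trend in the variance, array weights, the compared groups alone, parental controls, other fold thresholds, the Rank Products test of the study's methods, mean values over the probe sets of a gene, and arrays left out. Simulated arrays of this comparison (21042 probe sets) had noise drawn independently for each probe set, with no effect shared across an array. There the fit recovered 20 of 50 probe sets changed 1.5-fold, 49 of 50 at 2-fold, 50 of 50 at 3-fold and 50 of 50 at 4-fold, with 0 false calls. Deviations of the real arrays were correlated, so these figures do not give the error rate in the data. The other readouts of the study were not analysed here.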

Additional observations from a re-analysis of the deposited data

Results flagged for a closer look

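The difference between P-Rex1 RNAi #2 and NTC cells depended on HRG for many probe sets by the test of the interaction itself. At an adjusted p under 0.05 and a size over 1.5-fold, 130 had a lower and 56 a higher difference with HRG than without. Among the named genes the interaction, on the log2 scale, was lower for MMP10 -2.08, GLIPR1 -1.96, MMP1 -1.79, SPRR1A -1.37, CNN1 -1.77, MAP1B -1.39, GPAT3 -1.41, SCNN1G -1.23, EPGN -1.35, ITGA2 -1.08, SERPINA3 -1.49, SYTL2 -1.48, CALD1 -1.36, LOC151760 -1.40 and LYN -1.07. It was higher for PREX1 0.71, DLG2 0.90, BLNK 0.95, CAB39L 0.89, KATNAL2 0.74, TENM2 0.62, ESR1 0.73, STEAP4 1.38, SLC46A3 0.48, KLHL13 0.57, NR1D2 0.70 and BDH1 0.54. For PREX1 the positive value means a smaller fall with HRG, and for STEAP4 it goes with opposite signs in the 2 conditions. The interactions of SLC46A3, KLHL13 and BDH1 had an adjusted p under 0.05 but a size below the 1.5-fold threshold. Single outlying arrays were not tested for within the groups of 3. The array weights of the alternative fit were 0.549, 1.16 and 0.469 for RNAi #2 HRG arrays 1, 2 and 3. For the NTC HRG arrays they were 1.84, 1.08 and 0.524. With these weights 195 probe sets were lower and 38 higher with HRG, and 215 of the 249 calls were shared.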

How the results depend on the processing

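The fall of PREX1 was -0.83 to -0.63 and stayed called with arrays left out, with the replicate block, other sets of probe sets, variance models, array weights or the groups compared alone, and with parental controls, but at 1.64-fold it does not pass a 2-fold threshold. In the main comparison lower probe sets outnumbered higher ones under every alternative but the removal of the fold threshold. With HRG the lower count was 183 to 222 and the higher count 23 to 91 with single arrays, or both replicate 3 arrays, left out, 203 and 28 with parental cells as control, 188 and 24 with the mean of both controls, 1172 and 1327 without a fold threshold, 45 and 1 at a fold change over 2, and 199 and 53 by Rank Products. The interaction gave 86 to 153 lower and 15 to 95 higher with arrays left out, where 86 and 15 were without replicate 3 of all groups. The higher count was 36 without NTC vehicle array 1, 95 without NTC HRG array 2, 29 without NTC HRG array 3, 37 without RNAi #2 vehicle array 2, 30 without RNAi #2 HRG array 1 and 91 without RNAi #2 HRG array 3. Against RNAi #1 the lower count was 66 to 105 and the higher count 2 to 12, with 10 without RNAi #1 HRG array 1, 2 without RNAi #2 HRG array 1 and 12 without RNAi #2 HRG array 3. Without HRG the counts were 33 to 46 lower and 2 to 4 higher. With HRG classes at a fold change over 2, the raised and lowered medians were -0.68 and 0.44, with 58.2% and 30.0% called. With arrays left out the raised median was -0.38 to -0.35, and the share of the lowered class called higher was 2.76% to 11.0%, at 2.76% without NTC HRG array 3 and 3.94% without RNAi #2 HRG array 1. CDH5, at -0.07 and not called, was 0.03 against parental cells. Over all named genes besides PREX1 and all alternatives, a call was lost 52 times and gained 11 times, and the outcome was the same 982 times. The cause of these shifts was not tested.

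The main fit did not use the replicate numbers. Correlations of same-numbered arrays were 0.177, -0.0862 and 0.363 between RNAi #2 and NTC with HRG. They were 0.143, 0.0414 and 0.241 between NTC with HRG and with vehicle. They were all above 0.1 between RNAi #2 and NTC with vehicle (0.225, 0.137 and 0.214) and between RNAi #2 with HRG and with vehicle (0.388, 0.295 and 0.217). The same held between RNAi #2 and RNAi #1 with HRG (0.179, 0.199 and 0.325). With differently numbered NTC arrays, RNAi #2 HRG arrays 1, 2 and 3 correlated at most at 0.35, 0.0648 and -0.185. For NTC with HRG and with vehicle these highest values were -0.0203, 0.165 and -0.0192. In the other comparisons each lay below the same-numbered value. With the replicate number as a block, 198 probe sets were lower and 53 higher with HRG, all 249 calls were shared, 42 were lower and 3 higher without HRG, 83 were lower and 7 higher against RNAi #1, and the interaction gave 142 lower and 85 higher. On the second principal component the RNAi #2 HRG arrays 1, 2 and 3 scored 11.7, -2.4 and -11.3 and the NTC HRG arrays -3.2, 0.4 and -16.8. RMA values give no signal over background, and dim probe sets limit the falls that can be measured.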
